A study of Nematostella vectensis with 15 samples.

Results

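Of the 27527 gene models counted in the starlet sea anemone *Nematostella vectensis*, 242 (0.879%) were low in polyps kept at 15 °C, higher at 20 °C and at a similar level at 25 °C. Counts were expressed per 1000000 counts of the library total (CPM), and each gene's level was the mean of log2(CPM + 1) over the libraries of a temperature. A gene belonged to the set when its CPM averaged from 5 to under 1000 over the 15 libraries, its level at 20 °C exceeded that at 15 °C by at least 1 log2 unit, its levels at 20 °C and 25 °C lay less than 0.4 apart, and its spread within temperatures was below 0.6 (s, the square root of the mean of the 3 within-temperature variances). Since all 3 temperatures entered this rule, the differences between temperatures that follow describe how the genes were chosen and carry no test.

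The tissue was the mesenteric body portion, taken from adults of a laboratory line (strain label F1 offspring of CH2XCH6) that the series describes as female and acclimated, and that the study kept in the dark. All were held at 16 per 1000 salinity, at 15, 20 or 25 °C, with 5 libraries at each temperature. Temperature was the only labelled difference between the groups, and the labels name neither culture boxes nor preparation batches, so that either cannot be told apart from temperature where it followed temperature. The labels do not say whether each library came from a separate polyp, and the spread given here is therefore that between libraries, which may be partly technical. Library totals ran from 3526175 counts (15 °C replicate 3) to 22160961 counts (25 °C replicate 1), and averaged lower at 15 °C. The 10 most abundant genes took 17.2 to 20.1% of counts at 15 °C, 12.7 to 16.2% at 20 °C and 13.6 to 14.8% at 25 °C. With TMM or DESeq2 scaling in place of the library total, 221 or 207 genes met the rule, all of them among the 242, and 228 met it after random thinning of all libraries to the shallowest, 215 of them among the 242. None of the identifiers matched the reference gene table, so the genes are given here by identifier without a name or role, and the labelled tissue could not be checked against marker genes.

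Sea anemones do not regulate their body temperature, and a shift in water temperature reaches every tissue of the polyp. The mesenteries are folds of the body wall lining that extend into the gut cavity. They carry the gland cells that digest prey, longitudinal muscle and, in adults, the germ cells. RNA extracted from such a tissue is a mixture over cell types, and fewer cells of a type cannot be told apart from less RNA of a gene per cell.

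Most genes of moderate expression with a large increase between 15 and 20 °C met the other conditions of the rule as well. Of 12426 genes with mean CPM from 5 to under 1000, 304 were higher at 20 °C than at 15 °C by at least 1 log2 unit. Of these, 242 (79.6%) are the genes described here, 37 dropped again by at least 0.4 at 25 °C, 13 went up further by at least 0.4, and 12 were too variable within temperatures. A small difference between 20 and 25 °C was common in general. Read in 1 library per temperature, 74.4 to 80.8% of all genes of that expression range lay within 0.4 (libraries left out, below). Single libraries are noisier than the means of 5 libraries behind the 79.6%, so these shares are not comparable with it. The share over all genes by means of 5 libraries is not given here, and nothing particular to the set is read from the 79.6%. The mirror pattern, a level lower by at least 1 at 20 °C and then flat, was met by 64 of the 158 genes that dropped that far. A further 44 genes below 5 CPM and 3 genes at or above 1000 CPM met every other condition and lay outside the range of expression set by the rule.

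**Figure D1:**
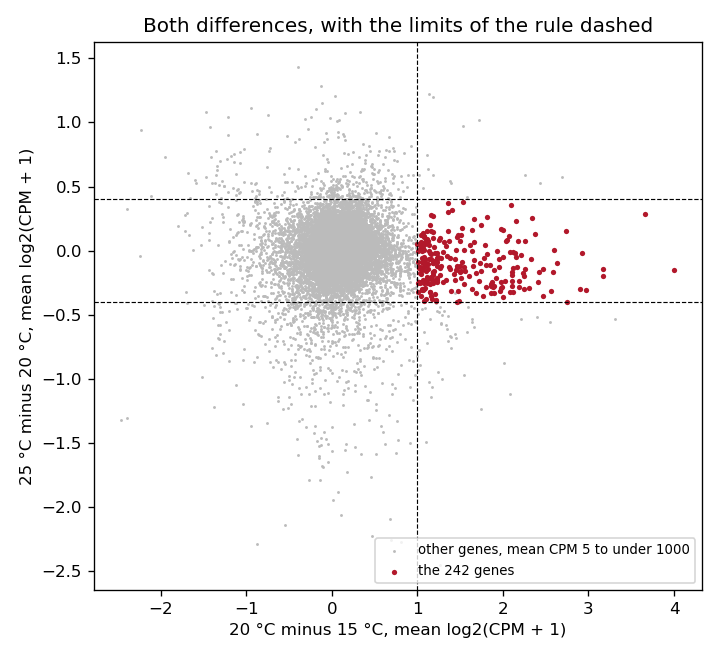
Each point is a gene with mean CPM from 5 to under 1000, placed by its difference between 20 and 15 °C (x axis) and between 25 and 20 °C (y axis), both in log2(CPM + 1) units, with the limits of the rule dashed. The 242 genes (red) fill the band between the horizontal lines up to 4.0 on the x axis, and the grey points around them are the genes that went on changing, were too variable or changed less.

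Among the 242 genes, the difference between 20 and 15 °C had a median of 1.37 log2 units, with quartiles of 1.13 and 1.90, beside a median of 0.08 over the 12426 genes of that expression range. It reached 1.5 in 101 genes, 2 in 51, 2.5 in 13 and 3 in 4. In linear terms, the mean CPM at 20 °C was 1.97 to 21.3 times that at 15 °C, with a median of 2.80, and it was at least 4 times higher in 67 genes. Between 20 and 25 °C the median difference was -0.12 (range -0.40 to 0.38), and the mean CPM at 25 °C was 0.734 to 1.31 times that at 20 °C. In 175 of the 242 genes (72.3%) the 25 °C level lay below the 20 °C level, against 48.4% of all genes of that expression range. The rule required a high 20 °C mean, which enters that difference too, so nothing is read from this imbalance.

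The groups rarely overlapped. In 239 genes every 20 °C library was above every 15 °C library, where 8.74% of the 17818 genes tested across the whole table showed the same, and the 3 exceptions were NEMVEDRAFT_v1g248008, TU60828 and NEMVEDRAFT_v1g240820. In 231 genes every 25 °C library was above every 15 °C library (13.5% of all genes tested), and 230 genes met both. Between 20 and 25 °C, by contrast, all libraries of one temperature exceeded all of the other in 5 genes, 2 of them higher at 25 °C (2.15% of all genes tested) and 3 lower (3.16%). With edgeR's quasi-likelihood test at an adjusted p of 0.05, 241 of the 242 genes were called higher at 20 °C than at 15 °C (9.66% of all genes tested) and 239 were called higher at 25 °C than at 15 °C (15% of all genes tested). For 25 °C against 20 °C a single gene, NEMVEDRAFT_v1g240128, was called lower (2.54% of all genes tested) and none was called higher (1.14%). An unadjusted p under 0.05 in that test was found in 32 of the 242 genes. The share over all genes was not computed for that count, so nothing is read from it. These counts follow from the rule and are given as a description.

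**Figure D2:**
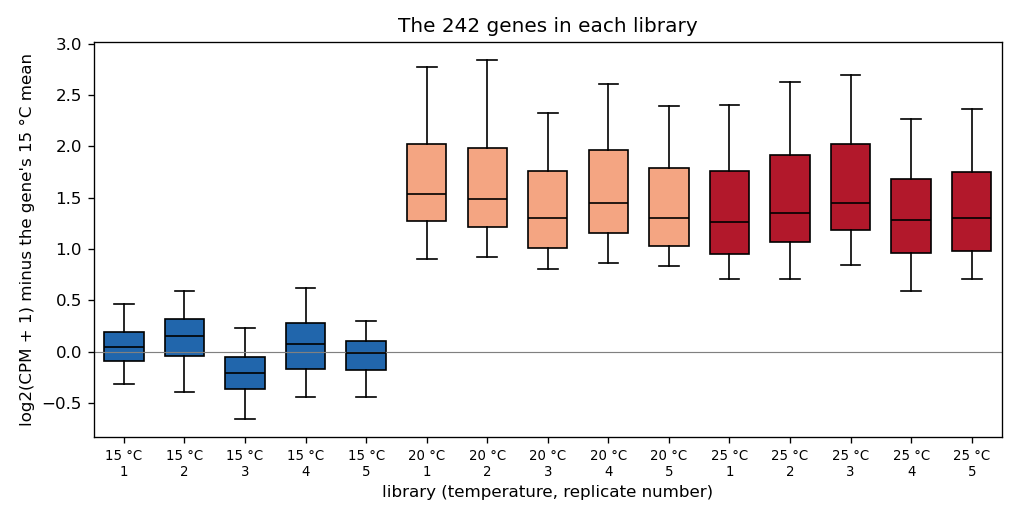
Each box holds the 242 genes in 1 library (x axis), as log2(CPM + 1) minus the gene's own 15 °C mean (y axis), with the median, the quartiles and whiskers at the 5th and 95th percentiles. The medians lie between -0.21 and 0.15 in the 15 °C libraries, between 1.30 and 1.53 at 20 °C and between 1.27 and 1.45 at 25 °C.

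Summed over the set, the genes took 0.762% ± 0.0612 of all counts at 15 °C (SD, n = 5), 2.37% ± 0.228 at 20 °C and 2.19% ± 0.216 at 25 °C. The 15 °C libraries ranged from 0.677 to 0.827%, the 20 °C libraries from 2.12 to 2.64% and the 25 °C libraries from 1.99 to 2.55%, so that the upper groups overlapped each other and neither reached down to 15 °C. Without the 5 most abundant genes of the set the shares were 0.623, 1.89 and 1.76%, and without the 20 most abundant they were 0.442, 1.26 and 1.17%. Since each gene of the set meets the rule, the step had to appear in these shares too, and nothing further is read from them. Libraries differed from their own group in a shared direction. The 15 °C replicate 3 library, the shallowest, was the lowest of its group in 111 of the 242 genes, with a median deviation of -0.21 log2 units from the group mean, beside -0.10 over all genes of that expression range. In the other direction, the 25 °C replicate 3 library was the highest of its group in 124 genes (51.2%), while over all genes of that expression range it was the highest in 21.8%. Some libraries were the highest less often in the set than over that range. These include 15 °C replicate 1 (19.8 against 37.8%) and 25 °C replicate 5 (8.26 against 33.4%). The 20 °C replicate 3 and replicate 5 libraries were above their group mean in 42 and 40 of the 242 genes. Their median deviations were -0.16 and -0.11 log2 units in the set, beside -0.08 and -0.05 over all genes of that expression range. For the counts of 111, 42 and 40 genes the share over all genes is not given here, so nothing is read from them.

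Per kilobase of exon, most of the genes lay below the median of that expression range at 15 °C and above it at 20 °C. Their median level was 9.10 RPKM (CPM per kilobase of summed exon length) at 15 °C, 27.3 RPKM at 20 °C and 26.0 RPKM at 25 °C, where the median over all genes of that expression range was 12.3, 13.1 and 13.0 RPKM. At 15 °C 96 of the 242 genes (39.7%) lay above that median, and at 20 °C 188 did (77.7%). The rule favours such a move, since each gene had to gain at least 1 log2 unit. In addition, 71 of the 242 genes had a 15 °C mean under 5 CPM, so nothing is read from the move. Mean CPM was under 20 in 115 genes, from 20 to under 100 in 82 and at least 100 in 45. The difference between 20 and 15 °C had a median of 1.40, 1.23 and 1.54 log2 units in these classes. Across the 242 genes its Spearman correlation with mean CPM was 0.07, a description over genes that share the same libraries. No gene of the set was at 0 counts in any library, and 4 of the 3630 values rested on 3 counts or fewer. A library's floor of 3 counts corresponded to 0.851 CPM in the shallowest and 0.135 CPM in the deepest library, and this covers counting error only.

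The 8 genes with the largest difference were mostly expressed at low levels at 15 °C. NEMVEDRAFT_v1g80734, a model of a single exon of 267 bp (scaffold 3, positions 2575441 to 2575707 of the deposited gene models), held 4.90, 2.64, 3.12, 12.6 and 4.01 CPM in the 5 libraries at 15 °C (replicates 1 to 5 in order, here and below). It held 125, 101, 72.2, 87.4 and 76.2 CPM at 20 °C and 63.9, 85.4, 109, 93.7 and 64.4 CPM at 25 °C. Its means were 5.45 ± 4.08, 92.3 ± 21.4 and 83.3 ± 19.5 CPM (SD, n = 5), a 16.9-fold and a 15.3-fold difference from 15 °C. The 15 °C replicate 4 library stood above the other 15 °C libraries, and the lowest 25 °C library was still 63.9 CPM. The 20 and 25 °C values interleaved.

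NEMVEDRAFT_v1g245520, with 2 exons (scaffold 164, 311687 to 314467), had the largest ratio of means. It held 2.12, 0.661, 0.284, 2.08 and 1.42 CPM at 15 °C, from 1 to 20 counts per library. At 20 °C it held 37.9, 31.9, 14.1, 32.4 and 23.6 CPM, and at 25 °C 31.0, 32.1, 37.0, 30.0 and 33.5 CPM. Mean CPM was 21.3 times higher at 20 °C and 24.9 times higher at 25 °C, ratios that rest on a 15 °C mean of 1.31 ± 0.827 CPM. The replicate 3 library was the lowest at 15 °C and at 20 °C, and the 25 °C libraries were the more even. On the other strand this model overlaps another gene model. The libraries came from a kit that marks strand, but the study describes counting with the default settings of featureCounts, which do not use strand. By those settings, reads from a stretch where models overlap on opposite strands are not assigned by strand.

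TU70287, a transcript assembled from the RNA-seq reads that matched no earlier gene model, has 9 exons (scaffold 71, 546104 to 562829). It held 9.27, 9.37, 8.22, 13.8 and 9.45 CPM at 15 °C. At 20 °C it held 120, 107, 73.5, 98.8 and 93.4 CPM, and at 25 °C 85.3, 88.4, 97.0, 90.5 and 79.6 CPM. The means were 9.82-fold and 8.79-fold above that at 15 °C. Its 25 °C libraries lay within the range of the 20 °C libraries. NEMVEDRAFT_v1g212210 (scaffold 151, 374141 to 375526) held 33.1, 36.5, 34.3, 57.8 and 30.5 CPM at 15 °C, with replicate 4 again the highest. It then held 414, 397, 300.4, 346 and 288 CPM at 20 °C and 310, 265, 362, 278 and 302 CPM at 25 °C, for means 9.08-fold and 7.89-fold higher.

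TU59588 belonged both to the 8 genes with the largest difference and to the 8 with the highest mean CPM. It also matched no earlier model, and its 17 exons lie on scaffold 51 (268705 to 285593). It held 57.4, 90.1, 56.7, 87.2 and 72.5 CPM at 15 °C, 533, 688, 478, 642 and 514 CPM at 20 °C and 415, 533, 577, 395 and 398 CPM at 25 °C. The mean at 25 °C was 0.812 times that at 20 °C, and those groups overlapped. For NEMVEDRAFT_v1g87644 (scaffold 16, 1460581 to 1472601), whose 6 exons span 12021 bp, the upper groups were level, with means of 26.3 ± 4.01 CPM at 20 °C and 25.8 ± 1.97 CPM at 25 °C over 2.66 ± 0.973 CPM at 15 °C. The means of NEMVEDRAFT_v1g210313 (scaffold 119, 615602 to 618271) were 1.90 ± 1.01, 20.2 ± 5.49 and 16.0 ± 3.34 CPM in order of temperature. TU80398 (scaffold 971, 34990 to 36283), the gene of the set with the largest drop after 20 °C, had means of 14.4 ± 5.07, 100.2 ± 19.6 and 75.5 ± 13.5 CPM, and its 25 °C level was -0.40 log2 units from its 20 °C level.

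**Figure D3:**
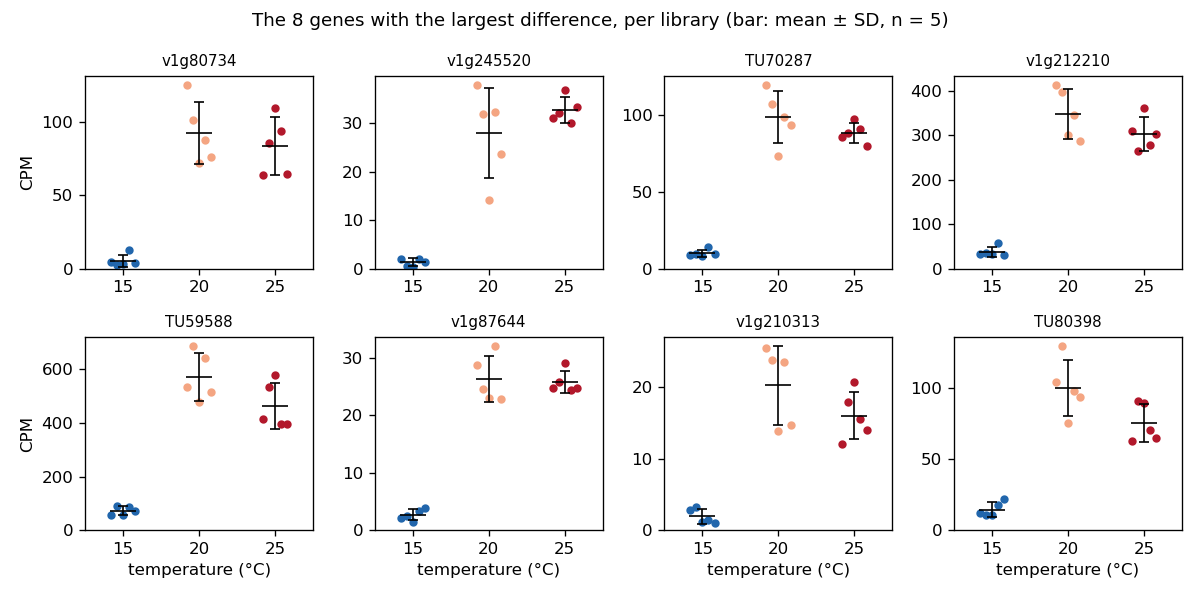
CPM in each library (points) at 15, 20 and 25 °C for the 8 genes with the largest difference between 20 and 15 °C, with the mean and SD of 5 libraries (bars) and gene identifiers without the prefix NEMVEDRAFT_. In all 8 genes the 15 °C points stay below every point at 20 and 25 °C, and the points at 20 and 25 °C interleave.

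The other genes among the 8 with the highest mean CPM had 1.97 to 5.88 times the 15 °C mean at 20 °C, and all but NEMVEDRAFT_v1g200173 lay above the median ratio of the set. TU57329, 28 exons on scaffold 488 (37426 to 78604), held 359, 474, 310, 308 and 397 CPM at 15 °C. At 20 °C it held 1287, 1461, 1331, 1596 and 1265 CPM, and at 25 °C 1096, 1270, 1397, 1036 and 1211 CPM. Mean CPM was 3.76-fold higher at 20 °C and 3.25-fold higher at 25 °C. The 20 and 25 °C libraries overlapped. NEMVEDRAFT_v1g239505 has 88 exons, the most of any gene in the set (scaffold 15, 1558811 to 1626316), and held 405, 446, 315, 343 and 417 CPM at 15 °C. It held 1000.1, 1459, 1068, 1140 and 1038 CPM at 20 °C and 904, 1145, 1351, 773 and 998 CPM at 25 °C. The 25 °C replicate 3 library was the highest of its group, as in 124 genes of the set.

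The other genes of high mean CPM spanned a wide range of ratios. NEMVEDRAFT_v1g247395 (scaffold 297, 258161 to 265847) had means of 136 ± 11.9, 742 ± 198 and 628 ± 177 CPM, a 5.46-fold and a 4.62-fold difference from 15 °C, with a spread above 15 °C several times that at 15 °C. NEMVEDRAFT_v1g245778 (scaffold 176, 103223 to 109929) had means of 115 ± 28.2, 678 ± 71.8 and 545 ± 60 CPM. NEMVEDRAFT_v1g200173 (scaffold 20, 155313 to 157169) was close to the limit of the rule, holding 305, 202, 373, 333 and 207 CPM at 15 °C, 558, 597, 564, 642 and 445 CPM at 20 °C and 612, 430, 597, 576 and 581 CPM at 25 °C. Its ratio of means was 1.97 for both upper temperatures. Per kilobase it had the highest 15 °C level of the set, 623 RPKM. The highest 20 °C level per kilobase was in NEMVEDRAFT_v1g114134, a single exon of 198 bp on scaffold 123, at 1250.2 RPKM, which was singled out after its values were seen.

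The genes differed in how even they were between libraries. The spread within temperatures (s) had a median of 0.263 log2 units in the set and 0.211 in all genes of that expression range. NEMVEDRAFT_v1g30450 (scaffold 117, 511876 to 522752) had the lowest spread of the set, 0.10, with 33.2, 35.7, 36.0, 32.3 and 34.8 CPM at 15 °C, 85.4, 72.8, 75.6, 85.8 and 79.0 CPM at 20 °C and 72.7, 64.9, 75.8, 63.3 and 75.7 CPM at 25 °C. NEMVEDRAFT_v1g219177 (scaffold 389, 191033 to 191908) had the highest, 0.589. It held 4.90, 4.85, 0.851, 1.46 and 4.01 CPM at 15 °C, where the replicate 3 value rested on 3 counts, and 8.67, 14.7, 6.72, 5.62 and 5.2 CPM at 20 °C. Its 15 and 20 °C libraries did not overlap but nearly met. TU51450 (scaffold 41, 140586 to 158941) increased most after 20 °C. It held 94.1, 111, 98.1, 103 and 109 CPM at 15 °C, 289, 308, 296, 339 and 274 CPM at 20 °C and 483, 368, 379, 337 and 403 CPM at 25 °C, so that the 25 °C libraries were higher except where replicate 4 reached the 20 °C range.

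The limit on the difference cut through a continuous distribution. The genes nearest to it on the inside were TU62582 (scaffold 5632), with means of 26.9, 55.0 and 57.2 CPM, and NEMVEDRAFT_v1g152446 (scaffold 4971), with means of 28.7, 58.8 and 50.7 CPM. Both differed by 1.0 log2 units between 20 and 15 °C. On the outside, NEMVEDRAFT_v1g126506 (means of 2.95, 6.61 and 7.33 CPM) and NEMVEDRAFT_v1g244932 (means of 30.7, 59.8 and 59.7 CPM) met every other condition and fell short of the limit by under 0.01 log2 units.

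The same step appeared in libraries that had no part in choosing the genes. The rule was applied to 12 libraries, leaving out those of 1 replicate number, and the genes so chosen were read in the 3 libraries left out. The choices held 193 to 252 genes, of which 185 to 231 were among the 242. In the libraries left out, the median difference between 20 and 15 °C was 1.5, 1.30, 1.47, 1.43 and 1.30 log2 units for replicate numbers 1 to 5, a mean of 1.40 ± 0.0935 (SD, n = 5), where it was 1.38 ± 0.0163 in the choosing libraries. At least 98.8% of the genes were higher at 20 °C than at 15 °C in each case, against 47.5 to 70.0% of all genes of that expression range. The difference was 1 or more in 73.0 to 81.9% of them, against 2.43 to 5.43% of all genes of that expression range. The 5 choices share most of their libraries and genes, so their SD describes the left-out libraries and is not an error over independent choices.

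The second step was less flat in the libraries left out. The median difference between 25 and 20 °C was -0.30, -0.16, 0.22, -0.25 and -0.06 log2 units for replicate numbers 1 to 5, with a mean of -0.11 ± 0.206, where all genes of that expression range had medians of -0.16, -0.07, 0.08, 0.01 and 0.13. The difference lay within 0.4 in 56.2, 72.5, 72.5, 57.1 and 84.9% of the chosen genes, against 74.4, 80.5, 80.4, 74.4 and 80.8% of all genes of that range, so that in 4 of the 5 cases the chosen genes were flat less often than genes in general. The single value above 0 came from the replicate 3 libraries, where the 20 °C library was low and the 25 °C library high across the set, as given above. When these were left out of the choice the number of genes chosen was 193, the lowest of the 5.

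**Figure D4:**
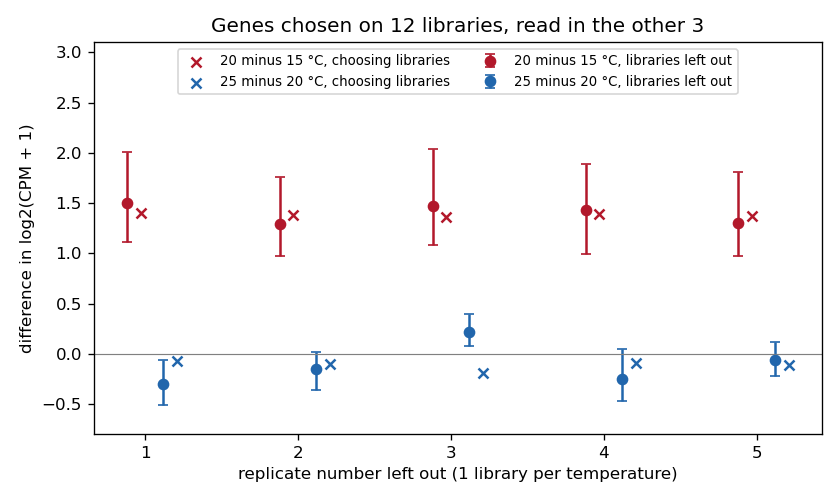
Median difference in log2(CPM + 1) between 20 and 15 °C (red) and between 25 and 20 °C (blue) of genes chosen on 12 libraries, read in the 3 libraries left out (dots, with quartiles as bars) and in the choosing libraries (crosses), by the replicate number left out (x axis). The red dots stay between 1.30 and 1.5, and the blue dots lie between -0.30 and 0.22 on both sides of 0.

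The gene models of the set were shorter and had fewer exons than those of other genes of the same mean expression, and were about as long as gene models in general. The median gene spanned 2995 bp with 3 exons, against 5966.5 bp and 7 exons over all genes of that expression range, while the summed exon length differed less (1315.5 against 1569 bp). A single exon made up 56 of the 242 models (23.1%), against 9.71%. Spans longer than that median of 5966.5 bp were found in 74 genes, 30.6% of the set (Wilson 95% interval 25.1 to 36.6%, which takes genes as independent and covers counting error only). Among gene models of any expression with at least 1 count the median span was 3180 bp, 48.8% of the set was longer, and 22.5% of models had a single exon, close to the share in the set. Since 71 of the 242 genes had a 15 °C mean under 5 CPM and entered the expression range through the warmer temperatures, the comparison was repeated by 15 °C level, a choice made after seeing the data. The 171 genes with at least 5 CPM at 15 °C had a median span of 4212 bp, against 6095 bp over all 12203 genes from 5 to under 1000 CPM at 15 °C. Of these, 36.8% exceeded that median (Wilson 95% interval 30.0 to 44.3%), and 17.0% had a single exon, against 9.14%.

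By mean CPM over all libraries, shorter models were seen in each class of expression and of origin. These classes keep the 71 genes that had a 15 °C mean under 5 CPM and entered the range through the warmer temperatures. The classes were not repeated by 15 °C level, so they are a description and add no support. Below 20 CPM, 35.7% of the set had a single exon against 13.8% of all genes at that level. From 20 to under 100 CPM the shares were 14.6 and 5.83%, and from 100 CPM upward they were 6.67 and 4.76%, the latter resting on 3 genes. Median spans in these classes were 2010 against 4399 bp, 4645.5 against 8028 bp, and 6696 against 8428.5 bp. In the earlier JGI gene models alone, the median span was 2459 bp in the set and 4440 bp over the expression range. In the models assembled from RNA-seq it was 6895 and 10794.5 bp. Assembled models made up 68 of the 242 genes (28.1%, against 34.8%), and 21 genes (8.68%, against 7.87%) matched no JGI model. Within the set, the step did not follow gene structure: its median was 1.37 log2 units in the 56 single-exon genes and 1.44 in the 23 genes with 10 or more exons.

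The 242 genes were often neighbours. In 36 places 2 of them were adjacent on a scaffold with no model in between, which involved 68 genes (28.1%), whereas 1.51% of the other genes of that expression range had one of the 242 beside them. Of the 36 pairs, 25 were on the same strand, 10 were head to head and 1 was tail to tail. Overlap of the models accounted for 4 pairs, 9 lay up to 1000 bp apart, 14 over 1 kb to 5 kb and 9 farther, up to 22862 bp. The part of reads that run from a gene into the next, or of a transcript split between models, was not tested. Of the 36 pairs, 8 were on the same strand and overlapping or within 1000 bp. The genes fell on 149 of 4660 scaffolds that carry a gene model, with 6 on scaffold 297.

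The longest unbroken row was of 4 genes on scaffold 69, between positions 440620 and 464788. NEMVEDRAFT_v1g103789 had means of 11.7 ± 1.76, 38.7 ± 3.96 and 35.8 ± 6.33 CPM at 15, 20 and 25 °C. Next to it NEMVEDRAFT_v1g103533 had 6.21 ± 1.62, 18.6 ± 1.69 and 17.1 ± 2.88 CPM, and NEMVEDRAFT_v1g103556 had 4.93 ± 1.03, 13.8 ± 1.44 and 11.9 ± 3.31 CPM. These 3 are on the minus strand, 2345 and 3386 bp apart. TU68776, on the plus strand 3005 bp farther, held 36.2, 43.4, 37.4, 52.2 and 39.9 CPM at 15 °C, 123, 132, 119, 156 and 127 CPM at 20 °C and 93.0, 122, 119, 95.2 and 104 CPM at 25 °C. The ratio of means between 20 and 15 °C was 3.30, 2.99, 2.80 and 3.14 along the row.

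A row of 3 on scaffold 335 lay between 174566 and 196746. NEMVEDRAFT_v1g218210, on the minus strand, held 134, 147, 165, 257 and 132 CPM at 15 °C, 691, 599, 485, 645 and 545 CPM at 20 °C and 499, 414, 566, 430 and 447 CPM at 25 °C. Head to head with it at 744 bp, NEMVEDRAFT_v1g247679 held 47.7, 69.7, 55.9, 57.9 and 56.3 CPM at 15 °C, 233, 287, 225, 280 and 242 CPM at 20 °C and 270, 274, 289, 195 and 235 CPM at 25 °C. The 15 °C replicate 4 library, the highest for the former gene, was not the highest for the latter. NEMVEDRAFT_v1g247680, 1488 bp downstream, had means of 86.0 ± 12, 450 ± 66.4 and 495 ± 93.9 CPM.

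The 4 overlapping pairs are given one by one, since how reads from the overlapping stretches were counted was not tested. On scaffold 23, NEMVEDRAFT_v1g180912 (9.91 ± 3.75, 20.9 ± 6.01 and 17.1 ± 2.84 CPM) lies within TU29158 (37.5 ± 6.43, 86.1 ± 21.7 and 81.4 ± 15.1 CPM) on the same strand. On scaffold 13, NEMVEDRAFT_v1g86652 (10.8 ± 2.08, 45.9 ± 8.85 and 38.7 ± 9.36 CPM) overlaps the start of NEMVEDRAFT_v1g199235 (219 ± 25.7, 1015 ± 211 and 841 ± 224 CPM) by 264 bp. On opposite strands, NEMVEDRAFT_v1g198360 (31.7 ± 3.81, 70.0 ± 8.94 and 58.4 ± 4.38 CPM) and TU78011 (15.4 ± 3.07, 34.3 ± 4.35 and 29.1 ± 3.42 CPM) meet tail to tail on scaffold 9. TU34640 (25.2 ± 4.25, 54.0 ± 10.8 and 58.9 ± 4.60 CPM) and NEMVEDRAFT_v1g240291 (7.94 ± 2.17, 21.4 ± 2.04 and 24.0 ± 2.68 CPM) overlap head to head on scaffold 27. The values of these 8 genes are uncertain where the models overlap. In all, 15 of the 242 models (6.2%, against 7.48%) overlapped another on the same strand and 22 (9.09%, against 10.6%) on the other strand.

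Adjacent genes of the set also varied together between libraries of the same temperature, which the rule did not use. After subtracting each temperature's mean, the values of adjacent pairs over the 15 libraries had a mean Pearson r of 0.581 (range -0.20 to 0.986, above 0 in 35 of 36 pairs), beside 0.205 over all pairs of the 242 genes and 0.132 over 12280 genes of that expression range with s under 0.6. These correlations are a description, since all genes share the same libraries and their depth. The correlation between adjacent genes outside the set was not computed, so the values do not show whether this is particular to the set. The 36 pairs include the models that overlap or lie close together on the same strand. The highest was between NEMVEDRAFT_v1g248008 and NEMVEDRAFT_v1g233708 on scaffold 390, 6810 bp apart on the same strand. The former held 59.9, 70.6, 42.5, 79.3 and 28.6 CPM at 15 °C, 154, 213, 110, 77.6 and 102 CPM at 20 °C and 171, 89.4, 101, 86.0 and 65.1 CPM at 25 °C. The latter held 26.8, 28.0, 19.3, 32.1 and 15.0 CPM, 69.1, 91.3, 50.2, 35.1 and 49.4 CPM, and 77.1, 39.4, 45.8, 36.9 and 27.7 CPM. In both genes 20 °C replicate 4 was the lowest of its group, within the 15 °C range for the former, and 25 °C replicate 1 stood above its group.

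Adjacent genes outside the set were compared with other genes outside it, since genes within it exceed any lower threshold by the rule. Of the 184 such genes of that expression range next to one of the 242, 31 (16.8%) were higher at 20 °C than at 15 °C by at least 0.5 log2 units, against 7.91% of all 12184 genes outside the set. Their median difference was 0.14, against 0.07. Of the 68 that lay over 5 kb away the share was 19.1%, with a median difference of 0.04, and of the 91 on the other strand without overlap it was 12.1%. These shares rest on 13 and 11 genes. Counted in gene models along the scaffold, the share was 11.9, 11.3, 11.4 and 14.7% at positions 2 to 5 and 7.21 to 9.85% at positions 6 to 10, so it did not drop evenly with distance. The genes are not independent, no test was made, and the threshold of 0.5 was chosen after the values were seen.

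**Figure D5:**
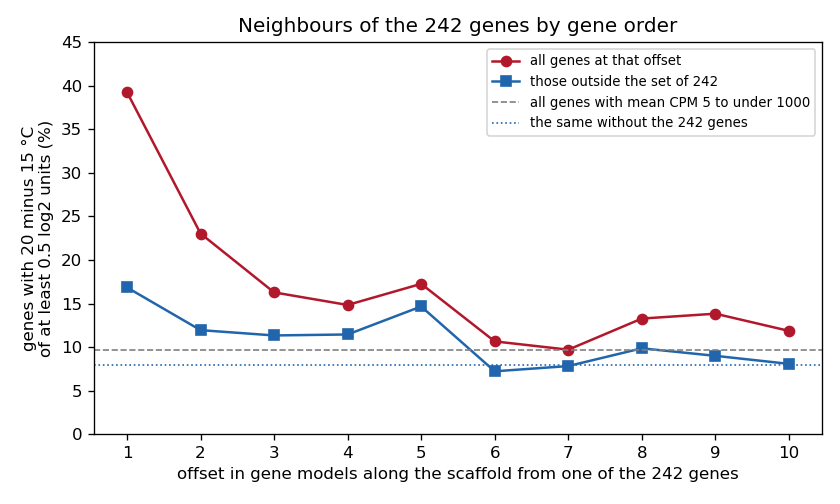
Percentage of genes at least 0.5 log2 units higher at 20 °C than at 15 °C (y axis) by distance from one of the 242 genes in gene models along the scaffold (x axis), for all genes of that expression range (red) and for those outside the set (blue), with the shares over all 12426 genes of the range (9.71%, dashed) and over those outside the set (7.91%, dotted). The blue line lies between 7.21 and 16.8%, and the red line is higher because it counts genes of the set, which meet the threshold by the rule.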

How the data were processed

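RNA was sequenced from 15 libraries (TruSeq stranded mRNA kit), 5 at each of 15, 20 and 25 °C. Per the submitters' processing notes the authors used Trimmomatic 0.38, HISAT2 2.1.0, StringTie 2.0 and featureCounts (default parameters per the study, which do not use strand), and they deposited raw counts per gene for 2 runs of each library, with gene models of 20376 JGI and 7151 assembled (TACO) genes. The genome build is not given in the sources used here; scaffold numbers and positions are those of the deposited models. Counts of the 2 runs were summed. CPM used the library total, log2 values a pseudocount of 1, and RPKM the summed exon length. Depth was 3526175 to 22160961 counts per library.

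Calls came from edgeR 4.0.16 (R 4.3.3) quasi-likelihood tests on 17818 genes passing its expression filter, all 242 genes included, with 1 fit over 3 temperatures, TMM scaling and Benjamini-Hochberg adjustment at 0.05. Alternatives were DESeq2 1.42.0, other scalings, filters, pseudocounts, single runs, thinned counts and leaving out each library. The genes and lists were chosen with earlier results of these data known. The text names the 8 genes with the largest difference, the 8 with the highest mean CPM, those with extreme s or 25 °C difference, those nearest the limit, and the 4 closest adjacent pairs. Other genes named (rows of adjacent genes, exceptions to the counts, the highest level per kilobase, the highest correlation) were chosen after their values were seen. Since 0 of 27527 identifiers matched the reference gene table, 18 gene lists, cell type markers and promoter motifs were not analysed here, and no sequence is shown.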

Additional observations from a re-analysis of the deposited data

Results flagged for a closer look

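In each of the 29 genes named by the rule, and in the summed share and the median level of the 242 genes, the 5 values of each temperature were examined for a library far from the other 4, meaning a gap to the nearest that exceeds 0.71 of the whole range. Of 93 groups of values examined, 7 held such a library, where chance gives about 1 in 20, or 4.65.

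At 15 °C, 4 of these were replicate 4, each time the highest. The values were 12.6 CPM in NEMVEDRAFT_v1g80734 (nearest 4.90), 13.8 CPM in TU70287 (nearest 9.45), 57.8 CPM in NEMVEDRAFT_v1g212210 (nearest 36.5) and 257 CPM in NEMVEDRAFT_v1g218210 (nearest 165). Over the 242 genes that library was the highest of its temperature in 67 (27.7%), against 14.5% of all genes of that expression range, and it did not hold the most such genes, since 15 °C replicate 2 was the highest in 95.

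The others were 72.6 CPM in 20 °C replicate 1 for TU34640 (nearest 53.1), 430 CPM in 25 °C replicate 2 for NEMVEDRAFT_v1g200173, below the others (nearest 576), and 54.9 CPM in 25 °C replicate 3 for NEMVEDRAFT_v1g86652 (nearest 38.2). The cause was not tested in any of these.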

How the results depend on the processing

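The number of genes chosen was 221 with TMM scaling, 207 with DESeq2 size factors, 241 and 242 with a single run, 228 after thinning to the lowest total and 223 to 257 without 1 library. It was 152 with the second difference held under 0.2 and 101 with a first difference of at least 1.5, where the number of adjacent pairs was 14 and 16 by the same stricter construction. Pairs otherwise ran from 28 to 45, and from 30 to 38 without 1 library, alternatives for the pairs that were chosen after seeing the data. Of the 242 genes, 168 were chosen in every one of the 15 choices without 1 library. The median difference between 20 and 15 °C over all genes of that expression range shifted from 0.08 to 0.03 (TMM) and 0.00 (DESeq2). No gene of the set lay below 0 in any scaling, but the rule had required a difference of at least 1, so nothing is read from that. Calls among the 242 stayed at 239 to 242 for 20 against 15 °C and 237 to 241 for 25 against 15 °C. The single call for 25 against 20 °C stood beside 655 calls over all 17818 genes tested. It became 6 with DESeq2 (beside 924 of 19364) and 2 with upper-quartile scaling (615 of 17818). With the 10 libraries alone it became 5 (793 of 17926). Without the filter on low counts edgeR called 0 (550 of 24617), with 31 of the 242 genes at an unadjusted p under 0.05, and DESeq2 with its own filter called 6. Leaving out 1 library gave 0 to 4 calls, beside 399 to 586 over all genes tested. There were 0 without 20 °C replicate 1, 2 or 4 or 25 °C replicate 1, 2 or 5, 2 without 20 °C replicate 3 or 25 °C replicate 4, and 4 without 25 °C replicate 3. The cause was not tested. The share of the set longer than the median gene was 48.8% against all models with a count and 36.8% with genes chosen and compared by 15 °C level, the latter added after seeing the data. Held-out means were 1.38 to 1.43 and -0.19 to -0.06 with 1 replicate number left out.

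Replicate numbers paired the libraries weakly at most: 6 of 15 same-numbered pairs correlated above 0.1, and 4 of 15 libraries matched their own number best. The mean correlation was 0.090 in same-numbered pairs (highest 0.289) and -0.022 in the others. With the number as a block, calls among the 242 were 241, 238 and 2 for the comparisons in that order. Over all genes tested the block gave 3547, 5905 and 740 calls, against 3345, 5641 and 655 without it. Whether equal numbers share a box or batch was not tested. For the 29 named genes all 464 recomputed differences stayed within 1 spread. The comparison of promoter motifs was not run. Depth limits the low 15 °C values: 43 genes had a 15 °C library under 10 counts.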
